A study of Mus musculus with 2 samples.

Results

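The Pim kinases Pim1, Pim2 and Pim3 were read in endothelial cells of mouse lung. The members were taken by gene symbol from the feature table, 3 of the 31053 genes listed. The rule used no measured value, but the family was picked with earlier results of these data known. A pair of 10x Genomics 3′ single-cell RNA libraries were compared, a control library and a metastatic library, to ask how lung endothelium differed 6 h after the arrival of melanoma cells. All mice were wild-type C57BL/6. Mice of the control group received phosphate-buffered saline through the tail vein, and mice of the metastatic group received 200000 B16-F10 cells each, a mouse melanoma line. Lungs were digested and cells positive for PECAM1, an endothelial surface protein, were sorted with no gate against leukocytes described. The cells of 2 mice were pooled in each library without a tag for the mouse of origin, so a group had 1 library, the spread between mice could not be measured, and no test between groups was possible. Ratios below describe these 2 libraries.

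PIM proteins are serine/threonine kinases without a regulatory domain, so that a PIM protein is active once it is made and its amount is set largely by transcription, mRNA decay and protein turnover. Their genes are known targets of cytokine signalling through JAK kinases and STAT transcription factors. PIM1 and PIM2 are best known from blood cells and lymphoma, and all 3 kinases can phosphorylate pro-apoptotic BAD and cell cycle inhibitors. In lung capillaries, general capillary cells (gCap) are distinguished from aerocytes (aCap), the thin cells of the gas exchange surface.

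Pim3 (ENSMUSG00000035828) lies on chr15:88862186-88865726 of GRCm38, on the plus strand. Pim1 (ENSMUSG00000024014) lies on chr17:29490753-29496112, also on the plus strand, and its bounds overlap the antisense gene Gm26885. Pim2 (ENSMUSG00000031155) lies on chrX:7878262-7883432, on the plus strand, with no other annotated gene inside its bounds. Since transcription is among the steps that set the amount of these kinases, the bases just before the first annotated start of each gene are shown. They cover the whole family and come from the RefSeq promoter table (build GRCm38.p6), which held all 3 members. They are written 5′ to 3′ on the plus strand, with capitals for matches, on either strand, to CCAAT, to GGGCGG (the GC box) and to the NF-kB consensus.
Pim3, chr15:88861944-88862185: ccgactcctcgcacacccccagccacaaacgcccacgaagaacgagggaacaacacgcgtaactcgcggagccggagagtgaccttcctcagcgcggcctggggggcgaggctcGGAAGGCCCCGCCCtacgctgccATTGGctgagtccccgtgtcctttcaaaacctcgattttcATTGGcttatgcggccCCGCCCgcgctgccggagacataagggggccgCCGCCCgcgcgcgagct
Pim1, chr17:29490535-29490752: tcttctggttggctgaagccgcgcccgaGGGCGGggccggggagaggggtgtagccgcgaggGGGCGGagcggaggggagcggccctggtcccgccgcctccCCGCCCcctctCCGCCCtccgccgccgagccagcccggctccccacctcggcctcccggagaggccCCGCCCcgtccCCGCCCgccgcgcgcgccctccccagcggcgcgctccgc
Pim2, chrX:7878056-7878261: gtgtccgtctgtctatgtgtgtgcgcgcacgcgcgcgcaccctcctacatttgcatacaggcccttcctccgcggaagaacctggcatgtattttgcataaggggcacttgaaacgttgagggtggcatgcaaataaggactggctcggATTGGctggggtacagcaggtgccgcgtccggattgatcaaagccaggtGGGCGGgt

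The Pim3 window of 242 bases held 2 CCAAT matches, 3 GC boxes and 1 match to the NF-kB consensus that overlaps the first GC box. Among windows of the same length from 32851 promoters, 33.2% held CCAAT, 31.6% a GC box and 5.73% the NF-kB consensus. The Pim1 window of 218 bases held 6 GC boxes, no CCAAT and no NF-kB match, and 83.0% of its bases were G or C, against 67.4% for Pim3. The Pim2 window of 206 bases held 1 CCAAT and 1 GC box, with 58.3% G or C. TTCNNNGAA (the STAT consensus), TATAAA and TGACGTCA (the cAMP response element) were searched on both strands in the same way and were in none of the 3 windows. They were in 6.83%, 12.1% and 1.48% of all windows of 242 bases. These are letter matches in a short window and carry no measurement of binding.

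The control library held 67929614 unique molecular identifiers (UMIs, 1 count per captured RNA molecule) and the metastatic library 64733724. A barcode was taken as a cell when 1000 to 5000 genes were detected and mitochondrial RNA made up less than 20% of its UMIs, which gave 7134 control and 6466 metastatic cells with median depths of 6272.5 and 6526.5 UMIs. Where the values of both libraries follow without their names, the control is given first. A cell was assigned to a class when it held a UMI of at least 2 class markers: Ednrb, Fibin and Tbx2 for aCap-like, Slc6a2, Car8 and Bst1 for vein-like, Gja5, Bmx and Fbln5 for artery-like, and Gpihbp1, Aplnr, Kit and Lpl for gCap-like cells that met no other class. The classes held 5020 control and 4519 metastatic gCap-like cells, 1364 and 1086 aCap-like cells, 247 and 304 vein-like cells, and 63 and 59 artery-like cells. The reactive capillary cells (rCap) that the study described were not set apart from the gCap-like class. At least 3 of 6 endothelial markers were detected in 98.0% to 100% of the cells of every class. Of 5 markers per class that the rule did not use, 5 were highest in their own class for aCap-like and vein-like cells and 4 for artery-like cells in each library. For gCap-like cells this held for 2 of 5, since Hmcn1, Ptprb and Sema3g were higher in another class, and this class is therefore defined by its rule alone. The libraries shared 16 cell barcodes, where 6.79 would be shared by unrelated draws.

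Pim3 was the main Pim transcript of lung endothelium in both libraries. Levels are given as CPM, the UMIs of a gene per 1000000 UMIs of a class, with exact Poisson 95% intervals that cover counting error only, neither the spread between cells nor that between mice. A UMI of a 3′ kit counts a molecule once whatever its length, so levels of different genes were compared without scaling to length. In gCap-like cells, Pim3 was at 235 CPM (230–241) on 7549 UMIs in the control library, and on 7840 UMIs at 259 CPM (253–265) in the metastatic library. Genes that reached 50 CPM in at least 1 library and 100 UMIs in the pair were taken for comparison, 3758 in all, and by control level Pim3 was at place 693 among them. Pim1 was at 80.5 CPM (77.4–83.7) and 99.8 CPM (96.2–103), so there were 2.92 and 2.59 Pim3 UMIs for each Pim1 UMI. Pim2 was at 1.99 CPM (1.54–2.55) on 64 UMIs and at 1.55 CPM (1.14–2.06) on 47 UMIs. Barcodes with 1 to 500 UMIs, which hold mostly RNA free in the suspension, gave Pim2 at 1.52 to 3.92 CPM, the lowest on 1 UMI. Pim2 in gCap-like cells lay within this range. Barcodes with 51 to 200 UMIs, which held the most Pim2 counts, gave 3.34 CPM on 31 UMIs and 3.58 CPM on 33 UMIs. These 2 values lay above the intervals of gCap-like cells. Such a comparison of CPM does not show whether the Pim2 UMIs of cells were free RNA. The part of free RNA in the Pim2 level of gCap-like cells was not tested.

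**Figure D1:**
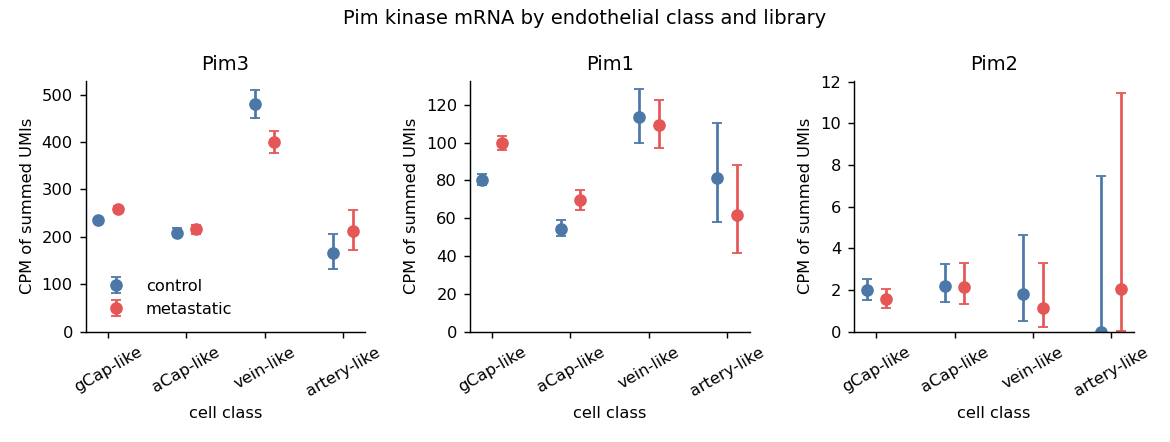
Level of Pim3, Pim1 and Pim2 (y axis, CPM of the UMIs summed over a class, each panel with its own scale from 0) in 4 endothelial classes (x axis) of the control library (blue) and the metastatic library (red). Points are 1 library each and bars are exact Poisson 95% intervals. Pim3 was highest in vein-like cells, at 480 and 400 CPM, and Pim2 was at 0 to 2.21 CPM.

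Veins carried the most Pim3. In control vein-like cells Pim3 was at 480 CPM (452–510), and in metastatic ones at 400 CPM (376–424). In aCap-like cells it was at 209 CPM (201–218) and 216 CPM (207–226), and in artery-like cells at 166 CPM (132–206) and 212 CPM (173–257). The order of levels in the control library was therefore vein-like, gCap-like, aCap-like and artery-like. Vein-like cells were 2.04-fold above gCap-like cells (log2 1.03, 0.93–1.12, exact conditional interval of the ratio of counts), gCap-like cells were above aCap-like cells by 0.17 (0.10–0.24) on the log2 scale, and aCap-like cells were above artery-like cells by 0.33 (0.01–0.67). In the metastatic library, vein-like cells were 1.54-fold above gCap-like cells (log2 0.63, 0.53–0.72) and gCap-like above aCap-like cells by 0.26 (0.19–0.33), while aCap-like and artery-like cells could not be ordered beyond counting error (0.03, −0.26 to 0.33). Median depth was 5950.5 and 6275 UMIs in gCap-like cells against 8422 and 8157 in vein-like cells. When gCap-like cells were divided into 3 groups by depth, Pim3 was at 247, 238 and 228 CPM from the shallowest to the deepest control cells and at 249, 267 and 257 CPM in metastatic cells, all below its level in vein-like cells.

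The share of cells with a Pim3 UMI gave the same first place to veins. After thinning every cell to 2000 UMIs, a Pim3 UMI was found in 48.8% of vein-like cells in both libraries (42.4–55.2% and 43.1–54.6%, exact Clopper-Pearson 95% intervals). In gCap-like cells the share was 31.7% (30.4–33.1%) and 32.7% (31.3–34.1%), and in aCap-like cells 29.5% (27.0–32.0%) and 30.2% (27.4–33.0%). In cells with monocyte or macrophage markers, which served as cells of low Pim3, the thinned share was 9.09% and 8.70% (22 and 23 cells) at median depths of 13951.5 and 14202 UMIs. Without thinning, 58.8% and 59.2% of gCap-like cells and 86.6% and 84.2% of vein-like cells had a Pim3 UMI. Thinning left out 73 control and 58 metastatic gCap-like cells, 10 and 12 aCap-like cells and 1 vein-like cell of each library as too shallow.

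Pim1 also had its highest point value in vein-like cells. It was at 113 CPM (99.7–128) and 109 CPM (97.0–122) in vein-like cells, at 54.6 CPM (50.3–59.0) and 69.6 CPM (64.3–75.1) in aCap-like cells, and at 81.1 CPM (58.0–110) and 61.7 CPM (41.6–88.0) in artery-like cells, on 40 and 30 UMIs. In the metastatic library the point values of the 4 classes stood in the same order as for Pim3. There aCap-like and artery-like cells could not be ordered beyond counting error (0.17, −0.35 to 0.75). Among control cells, artery-like cells could be ordered neither against vein-like cells (0.48, −0.004 to 1.00) nor against gCap-like cells (0.01, −0.48 to 0.46). In both libraries Pim1 was lower in aCap-like than in gCap-like cells, by 0.56 (0.43–0.69) and 0.52 (0.40–0.64) on the log2 scale. Vein-like cells were above gCap-like cells by 0.49 (0.30–0.68) among control cells, whereas among metastatic cells the difference of 0.13 (−0.05 to 0.30) was within counting error.

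Leukocytes that passed the PECAM1 sort showed the reverse balance of the family. These were cells outside the 4 classes that held at least 3 markers of a blood lineage and fewer than 3 of the 6 endothelial markers. In cells with neutrophil markers (12 control and 10 metastatic cells) Pim1 was at 1380 CPM (1036–1800) and 1767 CPM (1345–2279), while 1 and 2 Pim3 UMIs were counted in all of them. In cells with monocyte or macrophage markers (22 and 23 cells) Pim1 was at 333 and 321 CPM and Pim3 at 33.0 and 41.6 CPM. In cells with T or NK cell markers (15 and 19 cells) Pim1 was at 262 and 157 CPM, and in cells with B cell markers (36 and 31 cells) at 202 and 224 CPM. Pim2, the member best known from lymphocytes, gave 3 and 1 UMIs in the T or NK cells and 2 and 3 UMIs in the B cells, which is too few to order the libraries. Pim3 in the lymphocytes lay between 28.9 and 87.4 CPM, below all 4 endothelial classes. In endothelial cells that met no class, Pim3 was at 156 CPM in each library.

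Between the libraries, Pim1 and Pim3 were both higher in metastatic gCap-like cells, by little. The log2 ratio of metastatic over control was 0.31 (0.23–0.39) for Pim1 and 0.14 (0.09–0.18) for Pim3. Neither of these 2 members passed 0.32, the log2 difference taken as a limit of size, which 6.09% of the 3758 genes passed in the higher and 4.66% in the lower direction. Of all these genes, 20.5% had a higher ratio than Pim3 and 6.63% a higher ratio than Pim1, around a median of 0.02. Pim2 did not reach 50 CPM, and its ratio of −0.36 (−0.94 to 0.20) rested on the 64 and 47 UMIs given above. The call on Pim3 depended on how free RNA was treated. Subtracting the RNA profile of barcodes with 11 to 50 UMIs brought its ratio to 0.03 (−0.02 to 0.08), and subtracting that of barcodes with 51 to 200 UMIs left it at 0.14. The first estimated 10.3% free RNA in the metastatic library and 1.93 times as much in the control, and the second estimated 2.31% and 2.40% in the same order.

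**Figure D2:**
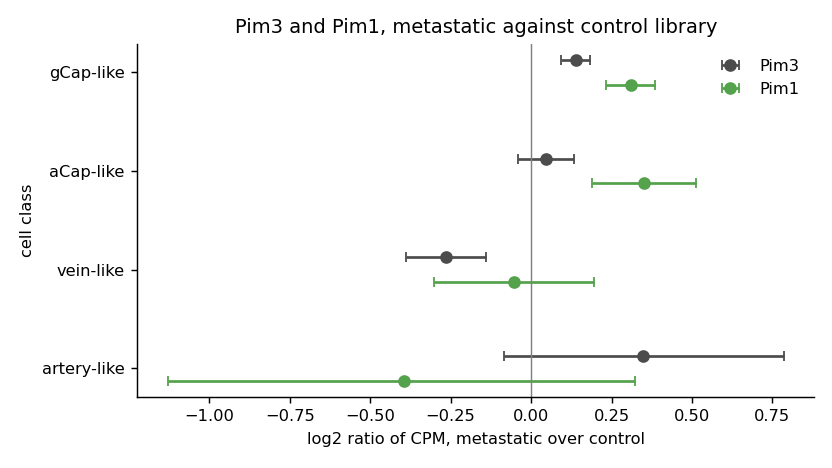
log2 ratio of CPM in the metastatic over the control library (x axis) for Pim3 (grey) and Pim1 (green) in 4 endothelial classes (y axis), with exact conditional 95% intervals that cover counting error only. Both genes lie above 0 in gCap-like cells (0.14 and 0.31), and Pim3 lies below 0 in vein-like cells (−0.26).

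The other classes did not share one direction. In aCap-like cells Pim1 was higher in the metastatic library by 0.35 (0.19–0.51), past 0.32, as were 4.45% of 3908 genes in the higher direction (4.38% in the lower). Pim3 was level there, at 0.05 (−0.04 to 0.13). Without cells that held 2 or more markers of a blood, mesenchymal or epithelial lineage, the Pim1 ratio in aCap-like cells was 0.23 (−0.00 to 0.46). In vein-like cells Pim3 was lower in the metastatic library, by −0.26 (−0.39 to −0.14), and Pim1 was at −0.05 (−0.30 to 0.20). Neither member passed 0.32 in veins, where 8.82% of 3719 genes were higher and 9.36% lower by that much. In artery-like cells the Pim3 ratio was 0.35 (−0.08 to 0.79) on 82 and 103 UMIs, in a comparison where 16.8% of 1827 genes passed 0.32 in the higher and 13.4% in the lower direction, and Pim1 did not reach 100 UMIs (−0.40, −1.13 to 0.32).

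Markers of other cells moved with the library in some classes. In vein-like cells the summed epithelial markers were at 127 and 3487 CPM, and the monocyte and macrophage markers at 31.7 and 613 CPM. Without cells that held 2 or more markers of a blood, mesenchymal or epithelial lineage, the Pim3 ratio in vein-like cells was −0.35 (−0.52 to −0.17). In gCap-like cells, 2 or more of 4 platelet markers were found in 6.61% of control and 10.6% of metastatic cells, and 2 or more of 4 red cell markers in 52.0% and 29.7%. Neutrophil markers, whose cells carried the most Pim1, were at 34.7 and 31.8 CPM in gCap-like cells, while Ptprc, the pan-leukocyte gene, was at 9.44 and 13.9 CPM. Without cells holding 2 or more markers of a leukocyte, platelet or mesenchymal lineage, and under every other setting tried, the Pim1 ratio in gCap-like cells lay between 0.27 and 0.36. Apart from these settings, the part of other cells in the ratios was not tested.

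The Pim3 difference in gCap-like cells was seen in the cells with several UMIs. At 2000 UMIs per cell, the share of cells with any Pim3 UMI differed by 0.95 percentage points (−0.96 to 2.85), within counting error, and took either sign over the alternatives, from −1.06 to 1.47. The share of cells with 3 or more Pim3 UMIs was 3.25% (2.78–3.79%) of control cells, 161 cells, and 4.55% (3.96–5.20%) of metastatic cells, 203 cells. The difference of 1.30 percentage points (0.50–2.105) was above counting error and lay between 0.98 and 1.90 points under the 11 alternatives for which it was computed. At most 8 Pim3 UMIs were counted in a thinned control cell and 9 in a thinned metastatic cell, and 25 and 34 in a cell before thinning. A Poisson distribution of the same mean would put 1.23% and 1.64% of cells at 3 or more. The variance over the mean of Pim3 was 1.55 and 1.84, higher than that of 97.2% and 97.7% of the genes whose mean level lay within 0.32 of its own on the log2 scale. The 10% of cells with the most Pim3 held 53.9% and 54.4% of its UMIs.

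Pim1 was sparser. A Pim1 UMI was found in 13.3% (12.4–14.3%) of control and 16.4% (15.4–17.6%) of metastatic gCap-like cells at 2000 UMIs, and 3 or more in 10 and 20 cells. A Poisson distribution of the same mean would put 0.052% and 0.111% of cells at 3 or more, against 0.202% and 0.448% measured. Its variance over the mean was 1.13 and 1.247, above that of 91.1% and 94.97% of the genes within 0.32 of its mean level on the log2 scale. The 10% of cells with the most Pim1 held 77.97% and 67.6% of its UMIs. In vein-like cells, where Pim3 was highest, 8.94% and 6.60% of thinned cells held 3 or more Pim3 UMIs, 22 and 20 cells.

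**Figure D3:**
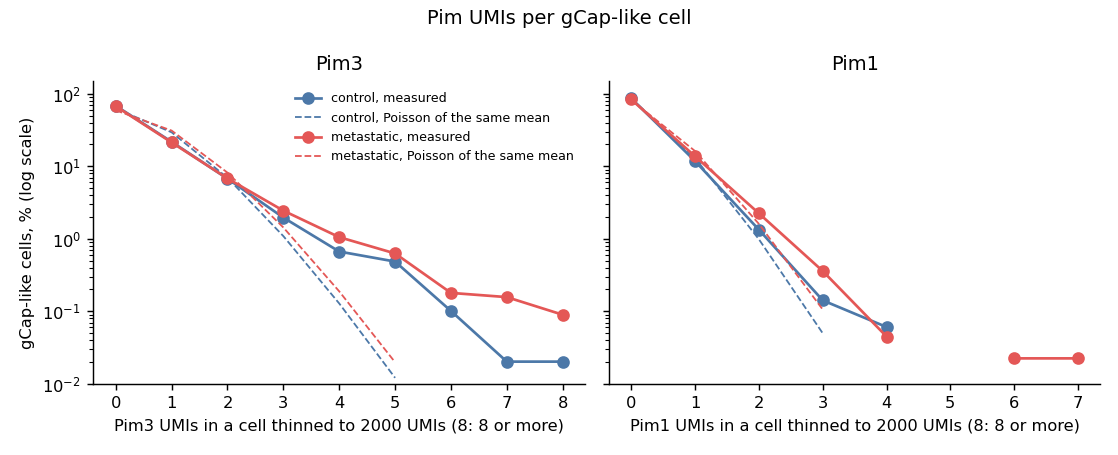
Share of gCap-like cells (y axis, %, log scale) by their number of Pim3 or Pim1 UMIs (x axis, with 8 standing for 8 or more) after thinning each cell to 2000 UMIs, in the control (blue) and metastatic (red) library. Solid lines join measured shares and dashed lines are Poisson distributions of the same mean. The measured Pim3 lines lie above the dashed lines from 3 UMIs on, with 3.25% of control and 4.55% of metastatic cells at 3 or more.

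By depth, the Pim3 ratio was near 0 in the shallowest of the 3 groups of gCap-like cells, 0.01 (−0.10 to 0.11), and was 0.17 (0.09–0.25) in the middle and 0.18 (0.11–0.24) in the deepest. The Pim1 ratio was 0.27 (0.09–0.45), 0.35 (0.21–0.49) and 0.29 (0.19–0.40) in the same groups. Pim1 was thus higher in the metastatic library in all 3 depth groups, and Pim3 in 2 of them.

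Cells with more UMIs of the rCap markers held more Pim3. The list consisted of Inhbb (a subunit of activins), Bcl3 (an atypical inhibitor of NF-kB), Adamts9, Tmem252, Osmr and Scarb1. The study chose these markers, and Pim3 beside them, with data that include these libraries, so they are not independent of the pattern. In thinned control gCap-like cells, Pim3 was at 211 CPM (199–224) in cells with no UMI of the list, 228 CPM (211–246) with 1, 252 CPM (224–283) with 2 and 399 CPM (355–446) with 3 or more. In the metastatic library the same steps were 193 CPM (180–207), 248 CPM (229–269), 274 CPM (244–308) and 566 CPM (522–612). The libraries therefore differed mainly in the top step, where the log2 ratio was 0.50 (0.30–0.71), against −0.13 (−0.26 to 0.00) in cells with none. The top step held 385 control cells, 7.78%, and 540 metastatic cells, 12.1%.

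Pim1 showed a flatter slope over the same steps, from 68.1 to 104 CPM in control and from 79.9 to 149 CPM in metastatic cells. From none to 3 or more UMIs its ratio was 0.23 (0.01–0.45), 0.45 (0.18–0.72), 0.35 (−0.04 to 0.75) and 0.52 (0.13–0.93), within counting error at 2 UMIs.

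Of the list, Bcl3 and Inhbb were also read singly, and the other members were not. In the metastatic library, the 318 thinned cells with a Bcl3 UMI had Pim3 at 506 CPM, against 244 CPM in the cells without one, a log2 ratio of 1.05 (0.88–1.22). In the control library 150 cells had a Bcl3 UMI and the levels were 363 and 232 CPM, a ratio of 0.65 (0.36–0.93). Cells with both UMIs made up 3.59% (3.06–4.17%) of metastatic cells, where 2.33% would hold both if they were drawn independently, and 1.31% (1.02–1.67%) of control cells against 0.962%. For Inhbb the Pim3 levels with and without a UMI were 412 and 258 CPM in 147 metastatic cells that held it (ratio 0.67, 0.40–0.94), and 312 and 235 CPM around 40 control cells (0.41, −0.22 to 0.98). Pim1 was also higher in metastatic cells with a Bcl3 UMI, at 170 against 93.4 CPM (0.86, 0.56–1.15).

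The immediate-early genes, which are transcribed within minutes of a stimulus or of cell handling, went with both kinases in both libraries. Cells were divided into 4 bins of similar size by their summed UMIs of 12 such genes, with the same limits in both libraries. From the lowest to the highest bin, Pim3 was at 124, 190, 259 and 376 CPM in control cells and at 148, 240, 267 and 402 CPM in metastatic cells. Pim1 was at 47.9, 69.2, 87.9 and 98.7 CPM and at 65.2, 96.8, 118 and 117 CPM. Within bins the Pim3 ratio of the libraries was 0.26 (0.03–0.48), 0.34 (0.15–0.52), 0.04 (−0.12 to 0.20) and 0.10 (−0.04 to 0.23), and the Pim1 ratio lay between 0.24 (−0.02 to 0.50) and 0.49 (0.19–0.79). The summed level of these genes was close between the libraries, at 14995 and 15338 CPM in gCap-like cells. It was 16305 and 15639 CPM in vein-like cells, 10784 and 11409 CPM in aCap-like cells and 9731 and 8063 CPM in artery-like cells. The tissue had been digested with collagenase at body temperature before the sort, and the part of tissue handling in this relation was not tested.

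**Figure D4:**
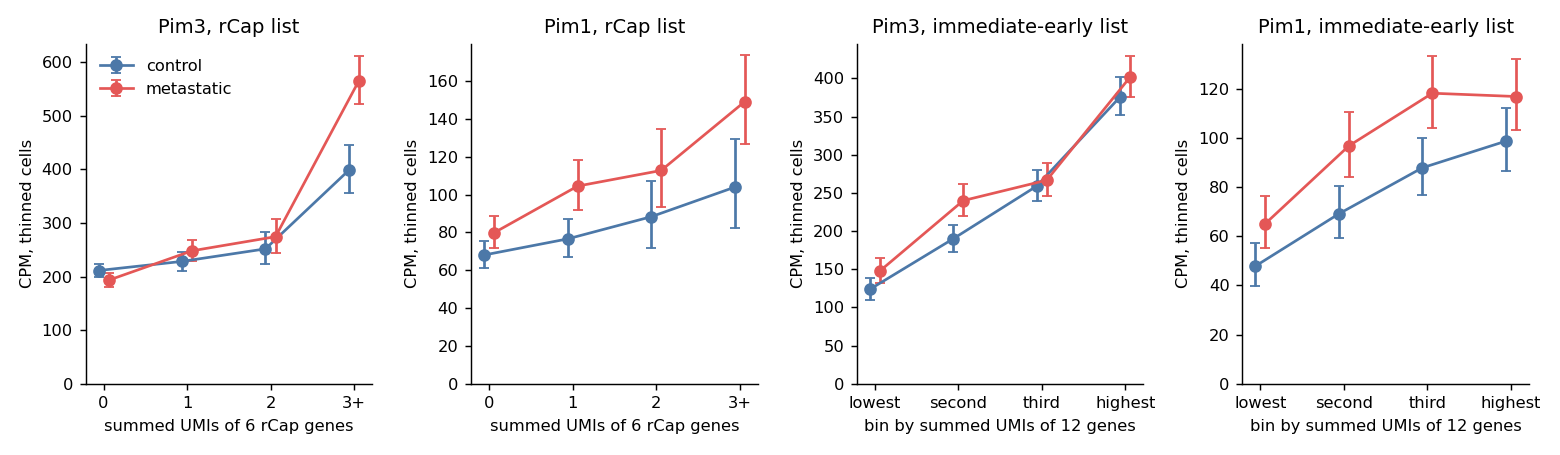
Level of Pim3 and Pim1 (y axes, CPM in gCap-like cells thinned to 2000 UMIs, scales from 0) by the summed UMIs of 6 rCap genes (left pair, 0 to 3 or more UMIs) and by the bin of summed UMIs of 12 immediate-early genes (right pair), in the control (blue) and metastatic (red) library, with exact Poisson 95% intervals. Pim3 is at 399 and 566 CPM at 3 or more rCap UMIs, where the libraries lie apart, and at 376 and 402 CPM in the highest immediate-early bin, where their intervals overlap.

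Interferon genes and NF-kB factors were read in the same way. In control cells Pim3 was at 222 CPM with no UMI of 8 interferon genes and at 238 CPM with 3 or more, and in metastatic cells at 247 and 307 CPM. Pim1 went from 66.4 to 95.03 CPM and from 86.1 to 121 CPM over the same steps. Over the summed UMIs of 7 NF-kB factors, Pim3 went from 175 CPM in cells with none to 258 CPM in cells with 3 or more in the control library, and from 178 to 305 CPM in the metastatic library. Pim1 went from 74.0 (54.8–97.9) to 83.7 CPM (76.4–91.5) and from 58.0 (42.6–77.2) to 109 CPM (100.3–119) over these steps. Most UMIs of this list were of the inhibitor Nfkbia, at 1326 and 1255 CPM, beside 106 and 115 CPM for Nfkb1. The steps thus follow Nfkbia more than the other members.

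Likeness to Pim3 over single cells was the Pearson r of ln(1 + UMIs per 10000) over 5020 control and 4519 metastatic gCap-like cells, given with no p since the cells of a library share its preparation and a depth bias. Of 3757 genes, 99 had r above 0.1 in control cells and 128 in metastatic cells, around a median of 0.01. Genes were ranked by the r nearer 0 of the 2 libraries, which by its construction favours genes alike in both. The first was Ier3 (0.338 and 0.333), an immediate-early survival gene. Next came Socs3 (0.322 and 0.325), the feedback inhibitor of JAK-STAT signalling, and the transcription factors Junb (0.311 and 0.282) and Cebpd (0.269 and 0.313). Zfp36 (0.269 and 0.253), which promotes decay of AU-rich mRNAs, Ier2 (0.277 and 0.240), Sbno2 (0.226 and 0.248), Atf3 (0.232 and 0.222), Egr1 (0.298 and 0.222) and Grrp1 (0.220 and 0.340) completed the first 10, and Grrp1 had the highest r of the metastatic library alone. After thinning to 2000 UMIs these values were lower, at 0.216 and 0.217 for Ier3 and 0.216 and 0.186 for Socs3. In the 247 and 304 vein-like cells, r was 0.429 and 0.266 for Ier3 and 0.479 and 0.314 for Cebpd. The spread of r was wider in these fewer cells, with 509 and 409 genes above 0.1. In aCap-like cells, r was 0.201 and 0.220 for Ier3 and 0.192 and 0.235 for Cebpd.

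The genes with the most negative r were Hilpda (−0.218 and −0.224), a lipid droplet protein, Efnb2 (−0.238 and −0.190), the ephrin of arterial endothelium, Smad6 (−0.173 and −0.141), an inhibitor of BMP signalling, Sema3g (−0.143 and −0.132) and Kitl (−0.146 and −0.120). Sema3g is also known from arterial endothelium. For Efnb2, r in vein-like cells was −0.027 and 0.008.

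**Figure D5:**
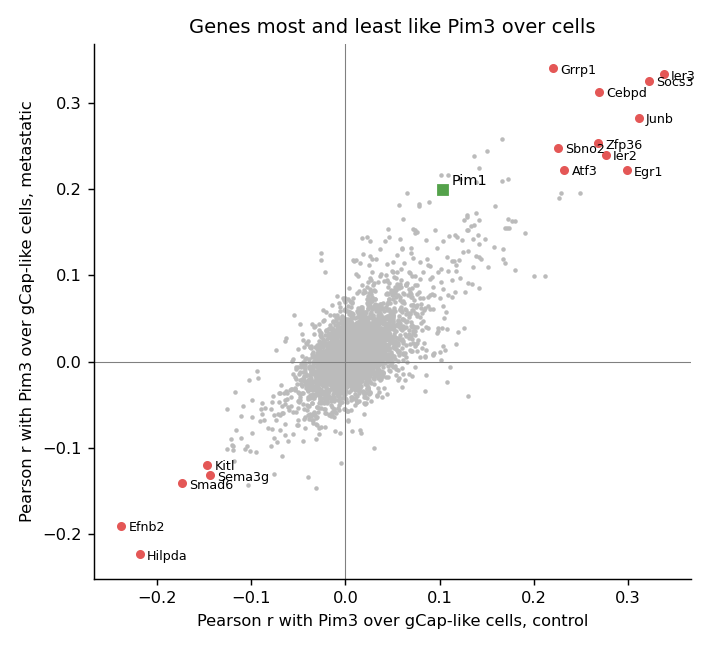
Pearson r of each of 3757 genes with Pim3 over gCap-like cells of the control library (x axis) and the metastatic library (y axis). Red points are the 10 genes with the highest and the 5 with the lowest r, and the green square is Pim1 (0.103 and 0.198). Socs3 and immediate-early genes lie at the upper right, and Hilpda and Efnb2 at the lower left.

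Pim1 and Pim3 themselves were weakly related. Their r was 0.103 and 0.198, and 0.033 and 0.093 after thinning, which are small values from sparse counts. In metastatic cells 0.198 was the highest r of any of 3757 genes with Pim1. Cells with a UMI of both kinases made up 4.51% (3.95–5.12%) of thinned control cells, where independent draws would give 4.23%, and 6.75% (6.03–7.52%) of metastatic cells against 5.37%. Thinned cells with a Pim1 UMI had Pim3 at 275 CPM, against 230 CPM without one, in the control library (log2 ratio 0.26, 0.10–0.42), and at 366 against 243 CPM in the metastatic library (0.59, 0.45–0.73). Ranked by the r nearer 0 of both libraries, the first genes for Pim1 were Cebpd (0.156 and 0.194), Socs3 (0.147 and 0.191), Junb (0.147 and 0.178), Ier3 (0.135 and 0.172) and Egr1 (0.147 and 0.131), all 5 of which are also among the first 10 for Pim3. All these r were under 0.198 and rest on the same sparse counts, so they too are descriptions only.

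Socs3, a STAT3 target, also separated cells by their Pim3. A Socs3 UMI was found in 60.4% of control and 58.5% of metastatic thinned cells. Pim3 was at 298 CPM in control cells with Socs3 and 141 CPM in those without, a log2 ratio of 1.08 (0.94–1.22). In the metastatic library the levels were 328 and 171 CPM (0.94, 0.81–1.07). Pim1 was at 87.2 against 58.2 CPM (0.58, 0.36–0.81) in control and 115 against 76.1 CPM (0.60, 0.39–0.80) in metastatic cells. Socs3 itself was at 828 CPM in control and 771 CPM in metastatic gCap-like cells.

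The genes upstream of the Pim kinases were read from lists by role, each beside the median of 0.02 over all genes in gCap-like cells. Counts past 0.32 in these lists stand beside 6.09% of the 3758 genes in the higher and 4.66% in the lower direction. Of 14 cytokine receptors, 11 had enough counts, and their median log2 ratio was 0.19. The receptors past 0.32 were Il2rg (0.43), the shared chain of several interleukin receptors, and Ifngr1 (0.37), the ligand-binding chain for interferon gamma. The lowest were Lifr, the receptor for leukaemia inhibitory factor, at 514 and 440 CPM (−0.23), and Lepr (−0.20). Il6st, the signalling chain that the interleukin 6 family shares, was at 241 and 267 CPM (0.15), and Il4ra at 202 and 250 CPM (0.31).

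All 4 JAK and STAT genes with enough counts, of 11, were on the higher side in metastatic gCap-like cells, with a median of 0.23. Jak1 was at 299 and 364 CPM (0.28), Stat2 at 62.95 and 71.5 CPM (0.18) and Stat3 at 145 and 162 CPM (0.16). Among single cells these genes were less like Pim3 than the target Socs3 was, with r of at most 0.058 in the control and 0.105 in the metastatic library.

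Inhibitors of the pathway were divided. Of 12, 5 had enough counts, with a median of 0.03. Socs2 was at 77.4 and 104 CPM (0.43), past 0.32, and Ptpn1, a phosphatase of JAK kinases, at 112 and 132 CPM (0.24). Cish, a classical STAT5 target, was lower, at 216 and 173 CPM (−0.32), and Socs3 was at −0.10.

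Of the NF-kB factors, 3 of 7 had enough counts, none past 0.32, with a median of 0.11. Rela was at 69.4 and 85.7 CPM (0.31), Nfkb1 at 106 and 115 CPM (0.11) and Nfkbia at 1326 and 1255 CPM (−0.08). Over gCap-like cells the r with Pim3 was 0.129 and 0.167 for Nfkbia. It was 0.013 and 0.005 for Nfkb1 and 0.004 and 0.018 for Rela. The members under 50 CPM included larger ratios and are named here after their values were seen. Bcl3 was at 16.1 and 43.5 CPM (1.44), Nfkb2 at 10.1 and 21.4 CPM (1.08) and Relb at 21.2 and 38.7 CPM (0.87).

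Genes that set the life of PIM mRNA and protein were next. Of 5 mRNA decay genes, 4 had enough counts, with a median of 0.25. Zfp36l1, which destabilises AU-rich mRNAs, was at 300 and 450 CPM (0.58), past 0.32, Arid5a, which stabilises some of them, at 83.7 and 104 CPM (0.32, just under the limit), Zfp36l2 at 96.1 and 110 CPM (0.19) and Zfp36 at 479 and 450 CPM (−0.09). Among 6 genes of the chaperone HSP90, which protects PIM proteins, and of the phosphatase PP2A, which opposes them, the median was 0.02. Hsp90aa1 was at 270 and 339 CPM (0.33), past 0.32, Hsp90ab1 at 1367 and 1636 CPM (0.26), Ppp2ca at 199 and 192 CPM (−0.05), Ppp2r5c at −0.06 and Ppp2cb at 66.1 and 57.5 CPM (−0.20).

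Of 25 genes of PIM substrates, 9 had enough counts, with a median of −0.08, none higher and 1 lower by more than 0.32, beside 6.09% and 4.66% of all genes. That gene was Cdkn1a, the cell cycle inhibitor p21, at 1759 and 1181 CPM (−0.57, −0.59 to −0.56). Foxo1 was at 150 and 132 CPM (−0.18) and Cdkn1b, the inhibitor p27, at 158 and 141 CPM (−0.16). Bad, the pro-apoptotic substrate, was at 53.4 and 53.6 CPM (0.00), Cbx3 at 197 and 202 CPM (0.04) and Numa1 at 87.1 and 88.7 CPM (0.03). Notch1 was at 269 and 245 CPM (−0.14). These are RNA levels and carry no measurement of phosphorylation. Substrates under 50 CPM, named after their values were seen, included Foxo3 at 48.5 and 29.5 CPM (−0.72), Map3k5 at 3.21 and 4.85 CPM (0.60), Cxcr4 at 9.72 and 20.1 CPM (1.05) and Myc at 0.966 and 6.27 CPM on 31 and 190 UMIs (2.70, 2.15–3.30).

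Other survival kinases gave a comparison for the family. Of 6, 4 had enough counts and none passed 0.32, with a median of 0.10. Sgk1 was at 284 and 325 CPM (0.19), while Akt1 was at 93.4 and 93.8 CPM (0.01) and Rps6kb1 at 101 and 96.5 CPM (−0.06). The level of Pim3 in gCap-like cells was thus between those of Akt1 and Sgk1. None of 4 junction genes passed 0.32, and their median was 0.03. Ctnnb1 (0.19, 0.15–0.24) and Ctnna1 (0.05, 0.02–0.08) were higher in the metastatic library beyond counting error. Cdh5 (0.01) and Ctnnd1 (−0.01) were within counting error of 0.

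Among the 3 lists of programs by which cells were divided above, the rCap list had 2 of 4 tested genes past 0.32 in the higher direction and a median of 0.33, from Scarb1 (0.15) and Osmr (0.28) to Tmem252 (0.37) and Adamts9 (0.47). Among these tested genes, r with Pim3 in control gCap-like cells ran from −0.026 for Osmr to 0.166 for Tmem252. In metastatic cells it ran from 0.126 to 0.258 for the same genes. This list was chosen by the study with these libraries and is not independent evidence of its direction. Its members under 50 CPM, Inhbb (5.20 and 32.4 CPM, 2.64) and Bcl3, had the highest ratios. The interferon list had 3 of 5 past 0.32 and a median of 0.33, from Ifit1 (0.05) and Oasl2 (0.23) to Ifit3 (0.35) and Isg15 (0.51). The immediate-early list had 1 of 11 past 0.32, Atf3 at 427 and 609 CPM (0.51), and a median of 0.01, with Junb and Ier3 at 0.12, Fos at −0.05 and Fosb at −0.18. Beside these counts, 6.09% of all 3758 genes passed 0.32 in the higher and 4.66% in the lower direction. Of all tested members of the 12 lists, Cdkn1a was the one lower by more than 0.32.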

How the data were processed

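Lung cells of 2 mice per group were sorted for PECAM1 and processed with a 10x Genomics 3′ kit, named as version 2 in the labels. Each matrix lists 6794880 barcodes, as many as a later kit version allows, so the kit version is uncertain. The deposited matrices hold UMI counts per gene and barcode for mm10, with no normalization. The submitters' processing notes name Cell Ranger and Seurat. The matrix header names Cell Ranger 3.1.0, while the methods of the study name another version. The annotation release is not given in the sources used here. All listed barcodes are in the matrices, so cells were chosen anew, with at least 1000 and at most 5000 genes and under 20% mitochondrial UMIs, a limit that removed 2 control cells. Totals were 67929614 and 64733724 UMIs. No doublet caller was run. Doublets were treated by the limit of 5000 genes, by setting apart cells that met 2 vessel classes (46 and 32 cells), and by alternatives.

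UMIs were summed per class and library and written as CPM. Ratios carry exact conditional binomial 95% intervals, CPM exact Poisson intervals and shares exact Clopper-Pearson intervals, with differences of shares by Newcombe's formula. They cover counting error only. With 1 library per group no test and no p-value was computed. Genes with at least 50 CPM in either library and 100 UMIs over both entered the counts past 0.32 on the log2 scale. Thinning drew 2000 UMIs per cell without replacement. The named genes were the Pim kinases, of each list the members with the 2 highest and the 2 lowest ratios and those needed by role, and the 10 highest and 5 lowest r for Pim3 and 5 highest for Pim1. Some members that this rule names are not reported here. The members and lists were chosen with earlier results of these data known. Of 20 alternatives, 16 were fixed at the outset and 4 were added after seeing the data. Ratio intervals and correlations were tested on simulated data, and thinning on measured control gCap-like cells. Python 3.11.15, NumPy 2.4.6, SciPy 1.17.1, pandas 2.3.3 and matplotlib 3.10.9 were used. Gene bounds are from GENCODE M21 and promoter sequences from RefSeq.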

Additional observations from a re-analysis of the deposited data

Results flagged for a closer look

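Pim3 in vein-like cells (log2 ratio −0.26), Pim1 in vein-like cells (−0.054) and Pim1 in artery-like cells (−0.40) lay on the other side of 0 than in gCap-like cells, and these differences between classes were not tested.

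Outside the cells, some ranges of barcodes with few UMIs also held Pim1 or Pim3 at a higher level in the metastatic library, beyond counting error. Pim1 was at 74.8 CPM against 52.9 CPM in the control at 1 to 10 UMIs, and at 53.2 against 43.3 CPM at 51 to 200 UMIs. Pim3 was at 209 against 196 CPM at 51 to 200 UMIs and at 186 against 154 CPM in barcodes above that and up to 500 UMIs. At 11 to 50 UMIs the log2 ratio was within counting error for Pim1 (0.11, −0.43 to 0.66) and for Pim3 (0.27, −0.30 to 0.85). The same held for Pim3 at 1 to 10 UMIs (0.16, −0.06 to 0.38) and for Pim1 at 201 to 500 UMIs (0.56, −0.04 to 1.18). The part of these barcodes in the ratios of the cells was tested only by the 2 subtractions given above.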

How the results depend on the processing

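No paired analysis was possible because each group is 1 library, and for the same reason no replicate could be left out. Of 186 values under alternatives, 8 lay outside the counting interval of the reported value, and 0 changed the sign of a value whose interval excluded 0. Values within counting error of 0 did change sign, namely the Pim3 ratio in aCap-like cells, from −0.06 to 0.08, and the difference in the share of gCap-like cells with a Pim3 UMI, from −1.06 to 1.47 points and at −0.096 with another draw of the thinning. With the RNA of barcodes with 11 to 50 UMIs subtracted, the Pim3 ratio in gCap-like cells was 0.030, that in vein-like cells −0.40 and in aCap-like cells −0.06, and the Pim1 ratio in aCap-like cells was 0.52. Thinned to 1000 UMIs, the share of gCap-like cells with a Pim3 UMI differed by −1.06 percentage points, and the correlation of Pim1 and Pim3 was 0.033 in the control and 0.093 in the metastatic library with thinned counts. Without the top 5% of cells by UMIs, vein-like cells of the metastatic library were above gCap-like cells by 0.73 in Pim3. Otherwise the Pim3 ratio in gCap-like cells lay between 0.09 and 0.15, the Pim1 ratio between 0.27 and 0.36, the Pim2 ratio between −0.56 and −0.13, and the Pim3 ratio in vein-like cells between −0.35 and −0.22. TMM scaling moved ratios in gCap-like cells by 0.02. In gCap-like cells Pim2 lay within its range of CPM in barcodes with 1 to 500 UMIs, a range whose low end rests on 1 UMI. It lay below the 3.34 and 3.58 CPM of barcodes with 51 to 200 UMIs. Artery-like cells held 82 and 103 UMIs of Pim3 and 40 and 30 of Pim1.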

Other observations

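Cells that met 2 or more vessel classes (46 control and 32 metastatic cells) had Pim3 at 434 CPM (380–493) and 341 CPM (286–403), nearer to vein-like than to capillary levels, at median depths of 10655.5 and 12026 UMIs. Pim1 was at 76.0 CPM (54.6–103) and 134 CPM (100–175) in them.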
